A study of Mus musculus with 2 samples.

Results

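The autophagy genes described here are 34 genes chosen by name for their role in starting autophagy, in conjugation, as cargo receptors or as transcription factors of the pathway, out of 21887 protein-coding genes. For each of them the position of ATF4 peaks was read relative to the gene, and 15 of the 34 had a called peak at one of their ends, inside the gene or within 10 kb, against 24.7% of all other protein-coding genes. By q-value the first of these peaks lay at the ends of Uvrag and Becn1, whose products are subunits of lipid kinase complexes built around Beclin 1, and most of the others were supported by few fragments. Counting only peaks of at least 6 fragments, 4 of the 34 genes (11.8%) were reached, against 8.35% of other genes. The 34 genes were also longer than other genes, with a median of 35.3 kb against 17.1 kb.

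The study asked which genes ATF4 may regulate in neurons, in work on injury by intracerebral hemorrhage. CUT&Tag maps where a protein sits on DNA: a transposase fused to protein A is tethered to the antibody, and it cuts and tags DNA close by. Here 2 libraries were prepared from primary neurons cultured from the cortex and hippocampus of embryonic C57BL/6 mice, 1 with an antibody against ATF4 and 1 with IgG, each from about 100000 cells. No genetic change is stated for these cultures, which were enriched in neurons, and whether they had received hemin, the agent the study used to injure neurons, is not stated. The 7873 called peaks of the ATF4 library were analysed, while IgG was not analysed here. There were no replicates, so no value has a replicate error, and the peak list cannot show whether the cells carried neuronal markers, since it holds binding and not expression.

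Autophagy delivers parts of the cytoplasm to the lysosome. A kinase complex around ULK1 starts it, a lipid kinase complex around Beclin 1 marks the membrane, conjugation reactions attach ATG8 proteins such as LC3 to that membrane, and receptors such as p62 bind cargo to LC3. In neurons, which do not divide, the pathway is known for clearing protein aggregates and damaged mitochondria. ATF4, the transcription factor that is translated when eIF2 is phosphorylated, is known to raise transcription of a set of autophagy genes in cells short of amino acids.

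Of the 34 genes, 7 (20.6%, Clopper-Pearson 95% interval 8.70% to 37.9%) had a summit, the highest point of a peak, no more than 1 kb from a gene end, against 8.11% of the other 21853 protein-coding genes. Counting summits inside the gene as well, 13 genes (38.2%, interval 22.2% to 56.4%) were reached, against 17.8% of other genes. With summits up to 10 kb outside the gene there were 15 (44.1%, interval 27.2% to 62.1%), against 24.7%. Weak peaks carried much of these counts: with at least 6 fragments at the summit, 4 genes were reached under each rule, against 3.73%, 6.07% and 8.35% of other genes. The intervals cover counting error only. The genes of the list were chosen with earlier results of these data known, so the difference was described and no test of the list was made.

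**Figure D1:**
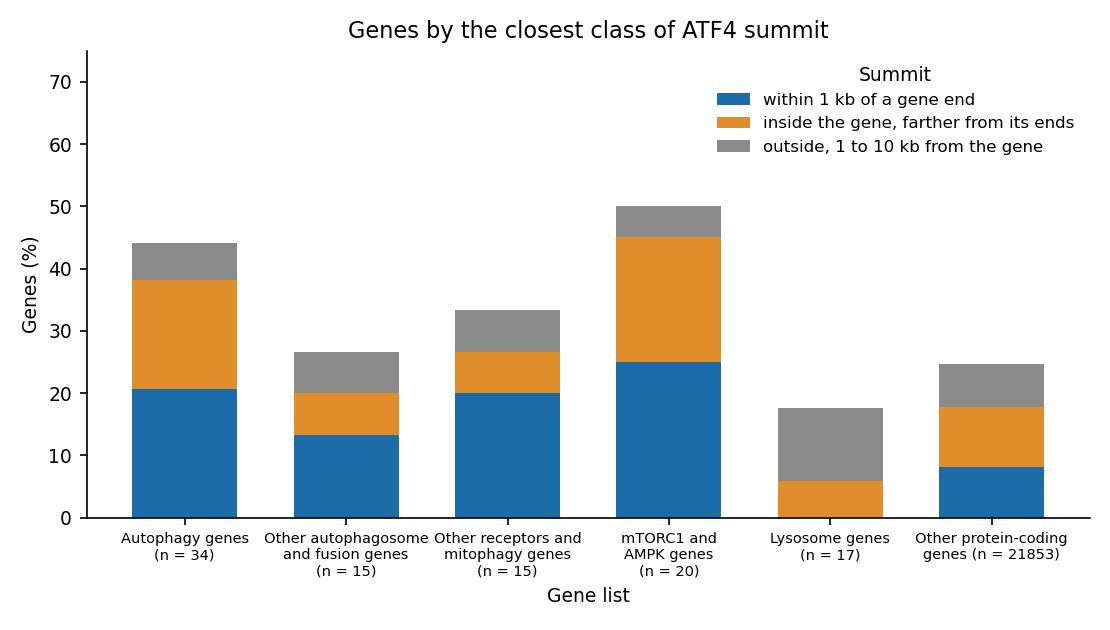
Share of genes (%, vertical axis) by the closest class of ATF4 summit, for the 34 autophagy genes, 4 further lists of the pathway and all other protein-coding genes; each gene is counted once, at a gene end before inside before within 10 kb. Autophagy genes reached 44.1% in all and other protein-coding genes 24.7%, while the 4 further lists ran from 17.6% (lysosome) to 50% (mTORC1 and AMPK).

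By step of the pathway, peaks of any class, which 24.7% of other protein-coding genes had, were spread over all 8 groups. The initiation kinases and their partners had them in 2 of 4 genes, the nucleation complex in 2 of 5, membrane supply in 3 of 5, ATG12 conjugation in 3 of 5, ATG8 processing in 1 of 5, the ATG8 proteins in 2 of 5, the receptors in 1 of 3 and the transcription factors in 1 of 2. Summits at a gene end were found in initiation, nucleation, membrane supply, the ATG8 proteins and the receptors, and not in ATG12 conjugation (0 of 5), ATG8 processing (0 of 5) or the transcription factors (0 of 2). With 8.11% of other genes having such a summit, counts of 0 in groups this small do not set these steps apart, and the steps cannot be ranked.

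In the nucleation step, Uvrag had the peak with the lowest q-value among the 34 genes. Its product joins the Beclin 1 complex in autophagosome maturation and endocytic traffic. The peak lay on chromosome 7, between 99141125 and 99141536. Its fold enrichment over the background that the peak caller estimated was 11.8, and its q-value of 2.39e-17 gave it rank 176 among all peaks. At its summit 18 fragments were stacked (exact Poisson 95% interval 10.7 to 28.4), where the estimated background was 0.605 fragments. The summit lay 138 bp outside the gene, on the side where Uvrag starts. A second summit 9.74 kb beyond the other end held 3 fragments and lay 369 bp from the lncRNA gene Gm33827. The Uvrag transcript of the promoter table used here starts slightly inside the gene, 161 bp from the summit. The sequence before that start is shown because it lies wholly under this peak, with the 41 bases centred on the summit in capitals (RefSeq, GRCm38.p6, chr7:99141145-99141394, minus strand):
Uvrag: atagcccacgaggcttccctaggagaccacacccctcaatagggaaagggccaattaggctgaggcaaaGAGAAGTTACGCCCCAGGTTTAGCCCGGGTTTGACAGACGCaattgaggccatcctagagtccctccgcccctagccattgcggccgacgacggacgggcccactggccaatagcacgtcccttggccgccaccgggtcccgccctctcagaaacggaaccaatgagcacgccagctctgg

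Becn1 encodes Beclin 1, the scaffold of the complex. Its peak on chromosome 11 ran from 101302019 to 101302622, wider than the median peak of 207 bp. It held 13 fragments (6.92 to 22.2) at 8.54-fold enrichment (q = 3.78e-10). The summit lay 112 bp outside the gene, and no end of another gene lay within 1 kb of it. Becn1 has no entry in the promoter table used here, so whether that end is its start was not determined. The intervals of Becn1 and Uvrag overlap each other and those of Gabarap and Nbr1, so these peaks cannot be ranked by height at this depth. The other members of this step, Pik3c3, Atg14 and Ambra1, had no summit within 10 kb. Pik3c3 is the catalytic subunit, Atg14 directs the complex to autophagosome formation, and Ambra1 is a Beclin 1 activator; their nearest summits were 18998 bp, 284 kb and 137 kb away.

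Among the initiation genes, Ulk2, which encodes a kinase related to ULK1, showed a peak between 61855132 and 61855317 of chromosome 11. This peak held 4 fragments (1.09 to 10.2) at 4.46-fold enrichment (q = 0.000535). Its summit lay inside the gene, 111 bp from the end at which it starts. The Ulk2 transcript of the promoter table starts further into the gene, 131 bp past the summit, and the sequence before that start is shown because it holds this whole peak, again with the 41 bases centred on the summit in capitals (RefSeq, GRCm38.p6, chr11:61855093-61855342, minus strand):
Ulk2: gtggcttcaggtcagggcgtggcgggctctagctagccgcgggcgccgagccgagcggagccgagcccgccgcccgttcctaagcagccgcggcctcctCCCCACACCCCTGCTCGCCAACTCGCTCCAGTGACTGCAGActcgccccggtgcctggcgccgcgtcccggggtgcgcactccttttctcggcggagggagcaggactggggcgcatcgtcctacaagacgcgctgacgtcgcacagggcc
The printed stretch of Ulk2 had 72.8% G and C, and that of Uvrag 61.6%. Ulk1, the main initiating kinase, had, within 10 kb, only a peak in the body of the gene, 11.9 kb from its start, with 4 fragments (q = 0.00329). Atg13 and Rb1cc1, subunits of the same kinase complex, had their nearest summits 176 and 97.7 kb away.

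Membrane supply genes carried low peaks. Atg2b, a lipid transfer protein of the growing membrane, had a summit inside the gene, 684 bp from the end at which it starts and 628 bp from a start in the promoter table, with 3 fragments, the smallest number of any called peak, at 3.36-fold enrichment (q = 0.0289). The same summit lay 739 bp from an end of the neighbouring gene Gskip. A further summit 9.91 kb past the other end of Atg2b held 3 fragments and lay 465 bp from Bdkrb1. Atg2a, its paralog, had no summit within 1 kb, but summits of 4 fragments each 1.31 and 5.31 kb outside the end at which it starts, and the farther one lay inside Ppp2r5b, 93 bp from an end of that gene. Wipi1, which binds the lipid made by the nucleation complex, had a summit of 4 fragments 7.32 kb inside the gene, at 4.60-fold enrichment (q = 0.000157). Wipi2, which also binds that lipid, and Atg9a, a scramblase, had their nearest summits 25.6 and 326 kb away. At this height, where 3 fragments have an interval of 0.619 to 8.77, none of these summits can be placed above another.

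In the conjugation steps the summits lay inside or outside the genes. Atg5 forms the conjugate with ATG12 and had a summit 6.22 kb inside the gene, with 4 fragments at 4.14-fold enrichment (q = 0.00372). Atg7, the activating enzyme of both conjugation reactions, had a summit of 4 fragments 9.61 kb from its 3′ end and 180 kb from the transcript start in the promoter table. Atg12 had 3 fragments 2.34 kb outside one end (q = 0.0387), at a position inside its neighbour Ap3s1. Atg10, the conjugating enzyme of this reaction, and Atg16l1, the partner that brings the conjugate to the membrane, had theirs 12.4 and 246 kb away. Of the enzymes that prime and attach the ATG8 proteins, Atg4a had 2 summits in its body, 4.45 and 44.9 kb from the end at which it starts, with 3 and 5 fragments. The first of them lay 1.38 kb from an Atg4a start in the promoter table and 1579 bp from the neighbouring gene Psmd10. Atg3, Atg4b, Atg4c and Atg4d had none within 10 kb, their nearest lying 13.0 kb (Atg4d) to 232 kb (Atg3) away.

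The ATG8 proteins are the membrane tags of the pathway. For Gabarap, 8 fragments (3.45 to 15.8) were stacked in a peak between 69995447 and 69995720 of chromosome 11, at 5.24-fold enrichment (q = 0.000240). Its summit lay 729 bp beyond the 3′ end of Gabarap and 88 bp from the neighbouring gene Phf23, inside the promoter window of Phf23. Map1lc3b, which encodes LC3B, had its closest peak at the 3′ end as well, 517 bp outside the gene, with 4 fragments at 4.33-fold enrichment (q = 0.00144). That summit lay inside Zcchc14, 580 bp from an end of it. Upstream of Map1lc3b, 4.94 kb before its start, a summit held 5 fragments. Neither gene thus had a called peak at its start, and the nearest summits of Map1lc3a, Gabarapl1 and Gabarapl2, related ATG8 proteins, lay 79.0, 116 and 43.3 kb away.

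Of the receptors, Nbr1, which binds ubiquitinated cargo, carried 7 fragments (2.81 to 14.4) between 101552111 and 101552380 of chromosome 11, at 6.35-fold enrichment (q = 3.78e-06). The summit lay inside Nbr1, 237 bp from its start, and 389 bp from an end of Brca1 on its other side. Sqstm1, which encodes p62 and is the best known receptor, had no summit within 10 kb; the nearest lay 12.1 kb before its start with 3 fragments. The nearest summit of Optn, a receptor of damaged mitochondria, lay 18.5 kb away. Of the transcription factors of lysosome and autophagy genes, Tfeb had a summit of 4 fragments inside the gene, 6.70 kb from the end at which it starts and 5.81 kb from the nearest start in the promoter table (q = 0.00505). The nearest summit of Tfe3, its relative, lay 66.6 kb away.

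**Figure D2:**
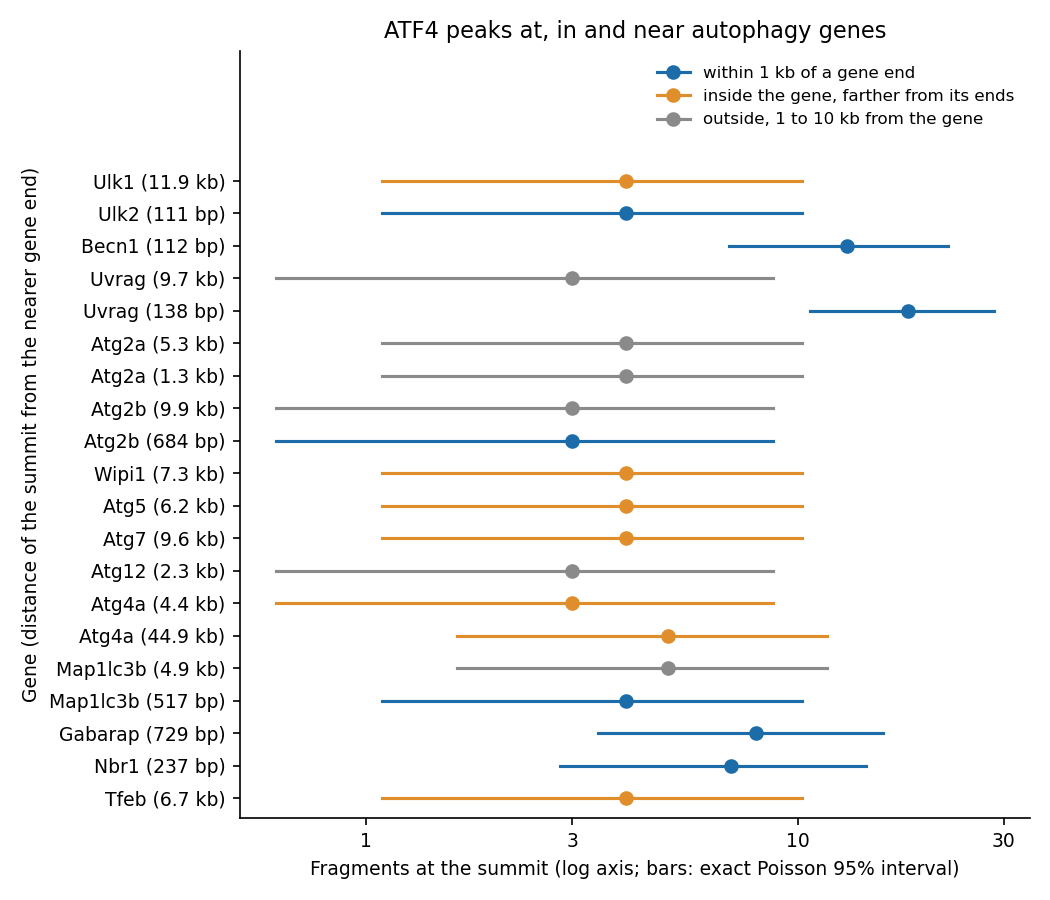
Fragments at the summit (log axis) of the 20 peaks at, in or within 10 kb of the 15 autophagy genes, with exact Poisson 95% intervals and, beside each gene name, the distance from the nearer gene end. Uvrag and Becn1 stand at 18 and 13 fragments, and the 13 summits away from gene ends hold 3 to 5.

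The 7 gene-end peaks held 3 to 18 fragments with a median of 7, and 4 of them (57.1%) held 6 or more. The 1520 other peaks at protein-coding gene ends had a median of 5, and 44.8% held 6 or more. The Uvrag peak was taller than 93.9% of those other peaks and the Becn1 peak taller than 89.3%, while the peaks of Ulk2 and Map1lc3b exceeded 21.7% of them. The 7 summits inside genes had a median of 4 fragments and the 6 summits outside, up to 10 kb, a median of 3.5, and none of these 13 reached 6. The median of all 7873 peaks was 4.

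**Figure D3:**
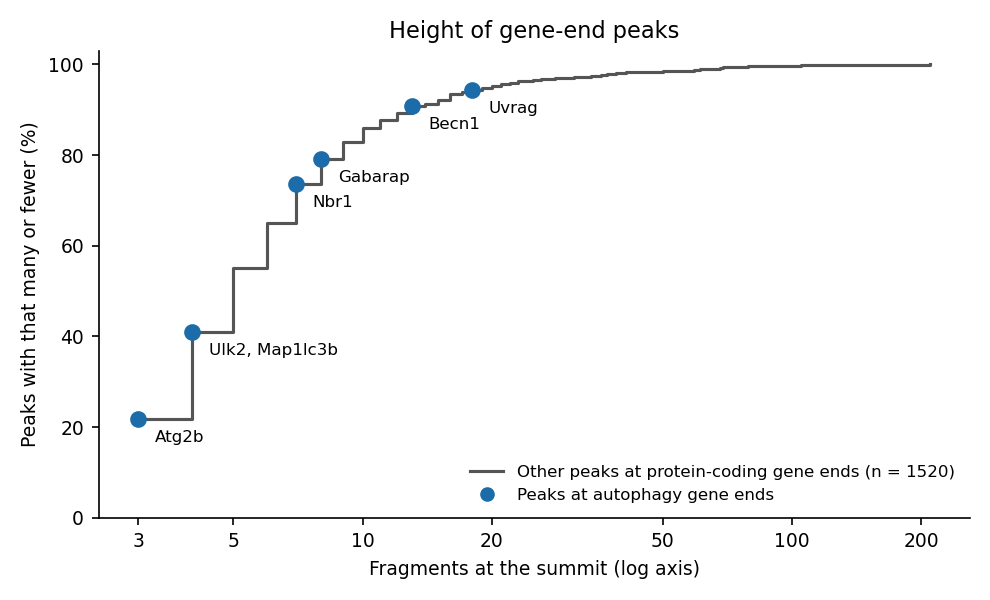
Cumulative share (%) of the 1520 other peaks at protein-coding gene ends by fragments at the summit (log axis), with the 7 peaks at autophagy gene ends marked on the curve. Uvrag and Becn1 lie in the upper part of the curve, and Atg2b, Ulk2 and Map1lc3b in the lower part.

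Near the limits of the windows, the farthest summit within 1 kb was that of Gabarap at 729 bp and the first outside was that of Atg2a at 1.31 kb. At 10 kb the last summits counted were those of Uvrag and Atg2b at 9.74 and 9.91 kb, both in genes that also had a summit at an end. Just outside, a peak of 15 fragments lay 10.6 kb before Gabarap, at ends of Elp5 and Ctdnep1, and a peak of 10 fragments lay 13.6 kb beyond the 3′ end of Ulk1, at an end of Ep400. Of the 19 genes with no summit within 10 kb, 5 had one within 20 kb and 8 had none within 100 kb, with a median distance of 79.0 kb. The smallest called peaks held 3 fragments, so binding at a lower level was not detectable at this depth, and a gene without a called peak cannot be called unbound.

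The gene end at which a summit lay could be assigned for the 28 members with a promoter entry. Of the 6 such genes with an end summit, 4 (Uvrag, Ulk2, Nbr1 and Atg2b) had it at the start and 2 (Gabarap and Map1lc3b) only at the 3′ end. Among other protein-coding genes with an entry and an end summit, 92.0% had it at the start and 8.05% only at the 3′ end. In 4 of the 7 genes, namely Atg2b, Map1lc3b, Gabarap and Nbr1, the summit also lay within 1 kb of an end of another protein-coding gene, as it did for 32.5% of the other genes with an end summit. Uvrag, Becn1 and Ulk2 did not share their peak with an end of another protein-coding gene.

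Autophagy genes were longer than other genes, with a median length of 35.3 kb against 17.1 kb, and longer genes held summits inside them more often. In genes over 100 kb, 2 of 6 members and 39.6% of other genes had a summit inside but not at an end. From 30 to 100 kb these were 3 of 12 and 13.7%, from 10 to 30 kb 1 of 10 and 6.04%, and under 10 kb 0 of 6 and 0.922%. Summits at gene ends varied less with length: in other genes their share ran from 6.33% under 10 kb to 9.69% from 30 to 100 kb, and the members had 2 of 6, 2 of 10, 2 of 12 and 1 of 6 from the shortest class to the longest. The part of gene length in the counts with summits inside genes was not tested.

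**Figure D4:**
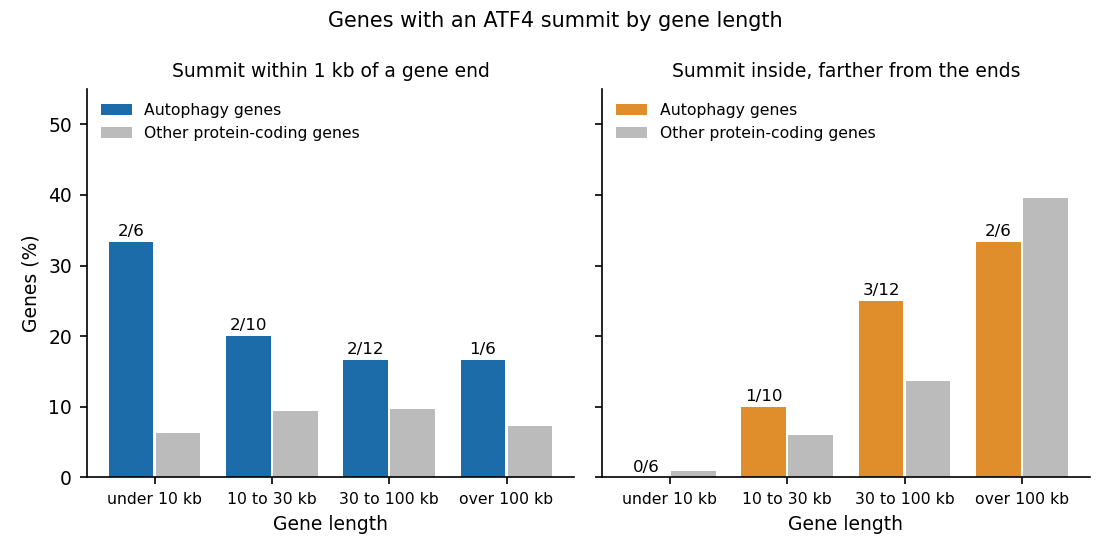
Share of genes (%) with an ATF4 summit at a gene end (left) and inside the gene only (right) by gene length, for autophagy genes (counts above the bars) and other protein-coding genes. In other genes the share with a summit inside rises from 0.922% to 39.6% with length, while the share at ends stays between 6.33% and 9.69%.

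Promoter windows of 300 bases, from 250 before to 50 after a RefSeq start, were searched on both strands for TGATGNAA, the core of the composite C/EBP-ATF site that ATF4 is known to bind, and for the cAMP response element TGACGTCA. The motifs share their first 3 letters, and neither contains the other. The table held 34 windows of 28 members, without Becn1, Rb1cc1, Pik3c3, Atg12, Atg16l1 and Map1lc3a. No window of an autophagy gene held TGATGNAA, against 3.60% of 21263 windows of protein-coding genes and 3.97% of all 32851 windows. It was found in 6.73% of the 639 protein-coding windows that held a summit, and in 11.3% of the 362 with a summit of 6 or more fragments. TGACGTCA was present in 1 member window, that of Atg5, and in 2.23% of protein-coding windows. The Atg5 window held no summit, and the member windows that did, those of Uvrag and Ulk2, held neither motif. The median share of G and C was 59.7% in member windows and 56.3% in protein-coding windows. No match says only that these letters are not in the window. The Atg5 match is shown beside one in the start region of Trib3, a gene upstream of autophagy that carried a peak there, with the motif in capitals and read 5′ to 3′ in the direction of the gene (RefSeq, GRCm38.p6, chr10:44268327-44268356, plus strand, and chr2:152344028-152344057, minus strand):
Atg5: cgtggtcttggTGACGTCAtctccgggcgc
Trib3: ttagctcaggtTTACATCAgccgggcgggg
The Trib3 match is TGATGNAA on the opposite strand, and this stretch lies within the called peak of Trib3.

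The other genes of the pathway were taken from 4 hand-written lists. These lists too were chosen with earlier results of these data known, so their shares were described and not tested. Of 20 genes of mTORC1 and AMPK signalling, which set autophagy according to nutrients and energy, 5 (25%) had a summit at an end, 4 inside and 1 within 10 kb, which made 50% in all, against 8.11% at an end and 24.7% in all for other protein-coding genes. Akt1s1, which encodes an mTORC1 inhibitor, had the tallest with 35 fragments (24.4 to 48.7), 8.18-fold enrichment and q = 1.19e-19, at a position 477 bp from its own end, closer to the microRNA gene Mir707, and also within 1 kb of an end of Tbc1d17. Trib3, a pseudokinase that inhibits AKT, had 9 fragments (q = 8.35e-06). Sesn2 and Ddit4, stress-induced mTORC1 inhibitors, had 7 and 6 fragments, and Mlst8, an mTORC1 subunit, had 5. Each of these 5 summits lay at the start side of its gene.

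Of 15 further autophagosome and fusion genes, 2 had a summit at an end. Tmem41b, an ER scramblase needed for autophagosome formation, had 16 fragments 428 bp from the end at which it starts (fold enrichment 11.7, q = 1.56e-16), and Rab7, the GTPase of late endosomes, had 2 summits of 6 and 8. Among 15 further receptor and mitophagy genes, 3 (20%) had a summit at an end and 5 (33.3%) had one of any class. Of these, Bnip3l, a mitophagy receptor, had a gene-end summit of 7 fragments and Tollip, a ubiquitin-binding receptor, one of 3 fragments. Of the 17 lysosome genes, 0 had a summit at an end, 1 inside the gene and 2 within 10 kb, so that 17.6% had any of these classes. Over the 4 lists, 10 of 67 genes (14.9%) had a summit within 1 kb of an end and 22 (32.8%) any of the 3 classes, set against the 8.11% and 24.7% of protein-coding genes outside the 34.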

How the data were processed

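The deposited file holds the peaks of the ATF4 library; MACS2 2.1.2, BWA, FastQC, deepTools and the build mm10 are named in the submitters' processing notes, with no roles, options, control or threshold given in the sources used here. Per peak the authors deposited a fold enrichment (a linear ratio to the estimated background, which cannot be read as enrichment over IgG), the -log10 p-value and -log10 q-value. The deposited display score is the whole-number part of 10 times the -log10 q in all 7873 peaks. Called peaks started at a -log10 q of 1.32.

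Fragments at each summit were solved from the fold enrichment, taken as fragments plus 1 over background plus 1, and the Poisson p-value, as MACS2 writes them; a whole number met the -log10 p within 0.001 in all 7873 peaks. The step, like the classing of genes, was tested on simulated data. If single reads were used, the numbers are reads. Poisson and Clopper-Pearson intervals leave out everything but counting error, and copies made by PCR are no independent molecules. The total depth is unknown.

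Genes came from RefSeq GRCm38.p6, the same assembly as mm10; all 34 genes were found. The table has no strand, so the strand and starts came from the RefSeq promoter table. All 34 genes are accounted for; others are named where they share a peak or are listed with one, except 1 listed gene that is not reported here. Members and lists were chosen with earlier results of these data known. Alternatives were a stricter q-value or fragment minimum, other windows, peak overlap, and 1 gene per summit. Scripts ran in Python 3.11.15 with pandas 2.3.3, numpy 2.4.6, matplotlib 3.10.9 and scipy 1.17.1.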

Additional observations from a re-analysis of the deposited data

How the results depend on the processing

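In 9 of 17 alternatives the number of autophagy genes with a peak was within 1.5 times the reported one. The numbers fell where weak peaks were left out. With a -log10 q of at least 5, only Uvrag, Becn1 and Nbr1 were left, so each of the 3 rules counted the same 3 genes (8.82%), against 2.73%, 4.50% and 6.21% of other genes. With at least 6 fragments each rule counted the same 4 (11.8%), Gabarap being the fourth, against 3.73%, 6.07% and 8.35%. With summits up to 10 kb away, both of these shares lay near those of other genes. A window of 500 bp at gene ends also counted 4, against 6.64%. Counting the gene start alone, chosen after seeing the data, gave 4 of the 34, against 5.96% of other genes, with genes outside the promoter table taken as having none. Among genes in that table the shares were 14.3% and 7.46%. When each summit counted for the gene with the nearest end only, Gabarap left the list and 6 genes had a summit at an end. No alternative was run for the fragments at each summit. Heights of 3 to 5 fragments limit most of the single genes, and neither a replicate nor IgG peaks were used.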

Other observations

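Chromosome 11 holds 6 of the 34 genes, namely Ulk2, Becn1, Wipi1, Gabarap, Sqstm1 and Nbr1, and 5 of these, Sqstm1 being the exception, had a summit at an end, inside or within 10 kb. A summit at an end was found in 4 of the 6, against 3 of the 28 autophagy genes on all other chromosomes. Among other protein-coding genes the share with a summit at an end was 10.7% on chromosome 11 and 7.91% elsewhere, and the share with any of the 3 classes was 29.6% and 24.3%. None of the 4 members on chromosome 1 and none of the 4 on chromosome 2 had a peak of any class. The grouping by chromosome was noticed in these data and was not tested.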
